A study of Mus musculus with 6 samples.

Results

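The genes of ornithine and polyamine metabolism were followed in the villus epithelium of the mouse duodenum. Described are 9 genes of the 20409 rows in the count table: Oat, Otc, Agmat, Odc1, Amd1, Srm, Sms, Azin1 and Sat1. The set was selected on the higher counts of Oat and Agmat in the double mutant, so the values of those 2 genes are given as a description with no test, and only the other 7 genes were tested. All 9 genes passed the filter on low counts, as did 13346 rows in all. RNA sequencing compared 3 double mutant mice, in which Smad4 is lost and β-catenin is stabilised, with 3 wild-type mice, and each group held 1 male (replicate 1) and 2 females. The double mutants carried Villin-Cre-ERT2, which is active across the intestinal epithelium once tamoxifen is given, with Smad4 fl/fl and a floxed exon 3 of Ctnnb on 1 allele (exon 3 fl/wt), on a C57BL6-enriched background. They received 0.05 g/kg tamoxifen intraperitoneally on 4 consecutive days and were collected 7 days post-induction. The wild-type mice were uninjected littermates matched for age and sex, so the effects of tamoxifen and of the mutations cannot be told apart, and their age and alleles are not given in the sources used here.

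Ornithine stands where several routes of amino acid metabolism meet. Ornithine aminotransferase exchanges it with glutamate and proline, and ornithine transcarbamylase turns it into citrulline, a step for which the small intestine is a main site. Ornithine decarboxylase turns ornithine into putrescine, and spermidine and spermine are then built from putrescine with aminopropyl groups taken from decarboxylated S-adenosylmethionine. Polyamines bind nucleic acids, are needed for growth, and are kept within narrow limits by antizymes, by acetylation and by export. In the intestinal epithelium they are known for their part in crypt cell renewal, and Odc1 is a known MYC target.

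RefSeq gave 9 promoter sequences (GRCm38.p6, from 250 bases before to 50 bases after the annotated start) for 7 of the 9 genes, and none for Azin1 and Srm. Both strands were searched for CACGTG (the E-box), CTTTGAT (a TCF/LEF core), GTCTAGAC (a SMAD palindrome) and the core promoter box TATAAA. The shares of all 32851 RefSeq promoters of that length with a match were 7.15%, 3.73%, 0.213% and 13.6%, in that order. Of these letters, the members' promoters held CTTTGAT in Agmat and CACGTG in Sms, which is palindromic and so matches on both strands. The Agmat and Sms promoters with a match and that of Oat are shown, since these genes differed most between the groups among those with a sequence. Capitals mark the motif. The second Agmat promoter lies at chr4:141746527-141746826 on the plus strand, with CTTTGAT beginning at position -51 from the start. The Oat promoter lies at chr7:132576349-132576648 on the minus strand and holds 22 CpG dinucleotides, where the median over all promoters was 7. The second Sms promoter lies at chrX:157492238-157492537 on the minus strand, with CACGTG beginning at position -196.
Agmat promoter 2: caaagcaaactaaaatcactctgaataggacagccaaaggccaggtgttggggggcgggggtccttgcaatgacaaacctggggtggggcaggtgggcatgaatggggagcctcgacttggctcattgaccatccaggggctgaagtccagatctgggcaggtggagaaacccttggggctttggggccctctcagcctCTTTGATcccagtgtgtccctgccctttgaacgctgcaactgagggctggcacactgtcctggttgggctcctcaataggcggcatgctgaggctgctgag
Oat promoter: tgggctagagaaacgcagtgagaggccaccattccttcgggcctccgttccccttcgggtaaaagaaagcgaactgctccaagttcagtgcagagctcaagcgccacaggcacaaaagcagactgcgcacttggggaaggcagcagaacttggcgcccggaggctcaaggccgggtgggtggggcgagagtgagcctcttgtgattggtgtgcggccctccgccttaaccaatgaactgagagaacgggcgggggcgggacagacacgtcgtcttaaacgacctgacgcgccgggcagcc
Sms promoter 2: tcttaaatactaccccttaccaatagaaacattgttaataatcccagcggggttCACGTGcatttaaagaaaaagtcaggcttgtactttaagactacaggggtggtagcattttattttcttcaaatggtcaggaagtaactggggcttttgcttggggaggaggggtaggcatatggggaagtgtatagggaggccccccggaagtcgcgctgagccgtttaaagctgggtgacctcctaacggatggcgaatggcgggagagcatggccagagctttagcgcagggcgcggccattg
The first Agmat promoter held 2 CpG dinucleotides and the first Sms promoter 38, so promoters of the genes that were higher ranged from CpG-poor to CpG-rich. A match is a run of letters and not a measured binding site.

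The libraries held 19678507 to 26337318 counts. Values are given as CPM (counts scaled to the library size and by the trimmed mean of M values, TMM), on which scale 3 counts correspond to 0.125 to 0.163 CPM. Smad4 (ENSMUSG00000024515), the gene deleted in the double mutant, measured 26.1 to 36.8 CPM there and 120 to 180 CPM in wild-type mice. Summed over 20 enterocyte markers, the level was 45508 to 48389 CPM in the double mutants and 76380 to 88753 CPM in wild-type mice, and 16 of these markers fell while 1 rose (edgeR quasi-likelihood test, adjusted p under 0.05). The 14 stem cell markers summed to 123 to 260 CPM in wild-type and 528 to 666 CPM in double mutant mice, and 8 of them rose by that test. The 8 tuft cell markers summed to 148 to 213 CPM in wild-type mice and 15.5 to 16.8 CPM in the double mutants, and all 7 that were tested fell. The 10 enteroendocrine markers summed to 236 to 326 CPM in wild-type mice and 102 to 114 CPM in the double mutants, and 6 of 9 tested fell while 1 rose. The 12 stromal and endothelial markers, of which 10 were in the table, summed to 0.791 to 1.20 CPM in wild-type mice and 1.62 to 7.32 CPM in the double mutants. Of these, 4 had at most 3 counts in every mouse. Double mutant replicate 1 was the highest, with 47 counts of Myh11 and 40 of Acta2. The 12 immune markers, of which 11 were in the table, summed to 43.6 to 83.0 CPM in wild-type mice and 31.9 to 45.6 CPM in the double mutants, and 2 of 6 tested fell. Wild-type replicate 1 stood apart in its goblet and Paneth cell markers. Its 8 goblet cell markers summed to 125 CPM, where the other 2 wild-type mice had 11616 and 11039 CPM and the double mutants 4669 to 5064 CPM. Its 8 Paneth cell markers summed to 7.96 CPM, where the other 2 wild-type mice had 911 and 1502 CPM and the double mutants 154, 248 and 230 CPM. It was also the lowest wild-type mouse in stem cell markers, at 123 CPM beside 244 and 260 CPM. Its tuft cell markers summed to 190 CPM beside 148 and 213 CPM, and its enteroendocrine markers to 236 CPM beside 264 and 326 CPM. In bulk tissue, fewer cells of a type and less RNA per cell cannot be told apart. The part of these cell type and mouse differences in the results was not tested.

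Of the 7 genes tested, 4 rose and 1 fell. Srm, Sms, Amd1 and Sat1 were higher, Azin1 was lower, and Odc1 and Otc did not pass the test (edgeR quasi-likelihood test, Benjamini-Hochberg adjustment over 13346 genes, adjusted p under 0.05). The test called 36.8% of all genes tested, 19.7% higher and 17% lower, beside 71.4% of these 7 genes. The median log2 fold change of the 7 genes was 0.49, and that of all genes tested was 0.02. The groups did not overlap in the 5 genes called, with 4 above and 1 below the wild-type range, and did not overlap in 52.4% of all genes tested (28.1% above and 24.2% below). The enzymes that add aminopropyl groups and supply them were higher, while the antizyme inhibitor was lower.

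**Figure D1:**
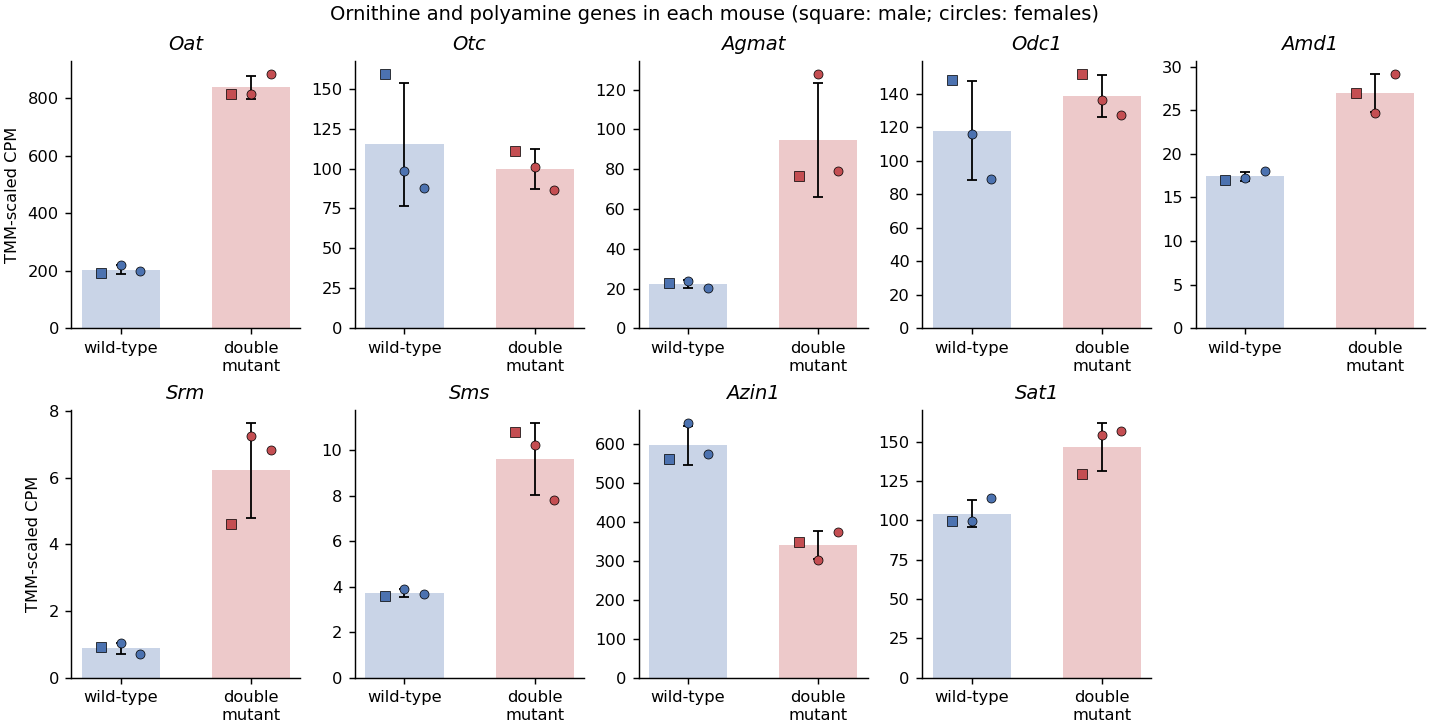
TMM-scaled CPM of each of the 9 genes in each mouse (y axis, linear, from 0), with bars at the group mean, error bars of ± SD (n = 3), squares for the male and circles for the females. The groups overlap in Otc and Odc1, and do not overlap in the other 7 genes, of which Oat and Agmat were chosen for being higher.

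Oat (ENSMUSG00000030934, mm9 chr7:139749158-139768081, minus strand) encodes mitochondrial ornithine aminotransferase, which interconverts ornithine and glutamate semialdehyde. It measured 193, 222 and 199 CPM in wild-type replicates 1, 2 and 3, and 814, 814 and 885 CPM in double mutant replicates 1, 2 and 3. The lowest double mutant mouse was well above the highest wild-type mouse, and both groups were tight. The means were 204 ± 15.2 and 838 ± 40.9 CPM (SD, n = 3 each), a 4.10-fold difference (log2 fold change 2.03 ± 0.11, SE).

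Otc (ENSMUSG00000031173, mm9 chrX:9829431-9898150, plus strand) encodes ornithine transcarbamylase, which joins ornithine and carbamoyl phosphate to make citrulline in the mitochondrion. It measured 159, 98.3 and 87.6 CPM in wild-type replicates 1 to 3, and 111, 101 and 86.5 CPM in double mutant replicates 1 to 3. The groups overlapped, and the male, replicate 1, was the highest mouse of each. Its log2 fold change of -0.21 did not pass the test (edgeR adjusted p = 0.495), with a 95% confidence interval of -0.72 to 0.30. Without wild-type replicate 1, the value was 0.10 (edgeR adjusted p = 0.612), so the sign rests on that mouse. Over the fits that each left out 1 mouse, the adjusted p ran from 0.231 to 0.778.

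Agmat (ENSMUSG00000040706, mm9 chr4:141302587-141315178, plus strand) encodes agmatinase, named for splitting agmatine, the product of arginine decarboxylation, into putrescine and urea. It measured 22.7, 24.0 and 20.1 CPM in wild-type replicates 1 to 3, and 76.8, 128 and 79.3 CPM in double mutant replicates 1 to 3. Double mutant replicate 2 was the highest, and the other two double mutant mice were close to each other and still above every wild-type mouse. The means were 22.3 ± 2.00 and 94.7 ± 28.8 CPM (SD, n = 3 each), a 4.25-fold difference (log2 fold change 2.09 ± 0.21, SE). Without 1 mouse at a time, the log2 fold change ran from 1.81 to 2.23.

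Odc1 (ENSMUSG00000011179, mm9 chr12:17551679-17558308, plus strand) encodes ornithine decarboxylase, the rate-limiting enzyme that makes putrescine. Its level was 148, 116 and 89.4 CPM in wild-type replicates 1 to 3, and 152, 136 and 128 CPM in double mutant replicates 1 to 3. The groups overlapped, because wild-type replicate 1 reached the double mutant range. The log2 fold change of 0.23 did not pass the test (edgeR adjusted p = 0.339), with a 95% confidence interval of -0.17 to 0.64. Without wild-type replicate 1, it was 0.43 and passed (edgeR adjusted p = 0.0448), and over the fits that each left out 1 mouse the adjusted p ran from 0.0448 to 0.791.

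Amd1 (ENSMUSG00000075232, mm9 chr10:40007265-40021992, minus strand) encodes S-adenosylmethionine decarboxylase, which makes the donor of aminopropyl groups. Its level was 17.0, 17.2 and 18.0 CPM in wild-type replicates 1 to 3, and 27.0, 24.7 and 29.1 CPM in double mutant replicates 1 to 3. The wild-type mice were nearly equal and all lay below the lowest double mutant mouse. Amd1 rose by 0.63 ± 0.12 on the log2 scale (SE; edgeR adjusted p = 0.00505). Its near-identical copy Amd2 measured 8.0 ± 0.840 CPM in the wild-type group and 7.61 ± 1.32 CPM in double mutant mice (SD, n = 3 each), with overlapping groups (log2 fold change -0.07, edgeR adjusted p = 0.803). Of the 3104 windows of 100 bases in the Amd1 transcript, 73.2% are found letter for letter in the Amd2 transcript, so reads could be split between them. With Amd1 and Amd2 counted together, an alternative chosen after seeing the data, the log2 fold change was 0.44 (edgeR adjusted p = 0.0215). Over the 6 fits without 1 mouse, the adjusted p of Amd1 alone ran from 0.0090 to 0.0269.

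Srm (ENSMUSG00000006442, mm9 chr4:147965612-147969102, plus strand) encodes spermidine synthase, which adds an aminopropyl group to putrescine. It measured 0.916, 1.03 and 0.708 CPM in wild-type replicates 1 to 3, from 22, 19 and 14 counts. Double mutant replicates 1 to 3 measured 4.60, 7.24 and 6.83 CPM, from 98, 156 and 144 counts. Srm was thus scarce in wild-type villi and well above the floor of 3 counts in every double mutant mouse. It rose 6.99-fold (log2 fold change 2.81 ± 0.31, SE; edgeR adjusted p = 0.000391). Its estimate was the largest in size of the 9 genes, and the differences between genes were not tested.

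Sms (ENSMUSG00000071708, mm9 chrX:153881787-153930219, minus strand) encodes spermine synthase, which adds the second aminopropyl group. It measured 3.58, 3.92 and 3.69 CPM in wild-type replicates 1 to 3, and 10.8, 10.2 and 7.83 CPM in double mutant replicates 1 to 3. Double mutant replicate 3 was the lowest of its group and still above all wild-type mice. Sms rose 2.58-fold (log2 fold change 1.37 ± 0.20, SE; edgeR adjusted p = 0.00144).

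Azin1 (ENSMUSG00000037458, mm9 chr15:38417185-38449021, minus strand) encodes antizyme inhibitor 1, an inactive relative of ornithine decarboxylase that binds antizyme and so spares the enzyme from degradation. Its level was 559.9, 653 and 573 CPM in wild-type replicates 1 to 3, and 346, 303 and 372 CPM in double mutant replicates 1 to 3. Every double mutant mouse was below every wild-type mouse. Azin1 fell by 0.81 ± 0.12 on the log2 scale (SE; edgeR adjusted p = 0.00169). Its binding partner Oaz1, antizyme 1, measured 391 ± 51.8 CPM in the wild-type group and 359 ± 46.1 CPM in double mutant mice (SD, n = 3 each), with overlapping groups (log2 fold change -0.12, edgeR adjusted p = 0.536).

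Sat1 (ENSMUSG00000025283, mm9 chrX:151647675-151650992, minus strand) encodes spermidine/spermine N1-acetyltransferase, which marks polyamines for oxidation or export. It measured 99.6, 99.6 and 114 CPM in wild-type replicates 1 to 3, and 129, 155 and 157 CPM in double mutant replicates 1 to 3. The groups did not overlap, and the male was the lowest of the double mutants. Sat1 rose by 0.49 ± 0.12 on the log2 scale (SE; edgeR adjusted p = 0.0130). This call was lost without wild-type replicate 2 (log2 fold change 0.46, edgeR adjusted p = 0.0513) and without double mutant replicate 3 (0.45, edgeR adjusted p = 0.0548). Over the 6 fits without 1 mouse its adjusted p ran from 0.00988 to 0.0548.

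In the mm9 genome, 4 of the 9 genes have near-identical copies elsewhere, at 95% identity or more over at least 300 bases. Such copies cover 99.8% of the Amd1, 96.1% of the Odc1, 90.5% of the Sat1 and 45.2% of the Sms transcript. How reads with several places to map were counted is not stated, so the levels of these 4 genes are uncertain. No such copy was found for Oat, Otc, Agmat, Srm or Azin1.

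Per kilobase of exon, with all annotated exons of a gene merged, Azin1 and Oat were first in wild-type villi and Oat alone in double mutant villi. The longest coding transcript is shorter than this length in some genes, such as Sat1 (1162 beside 2774 bases), Sms (3717 beside 6010) and Azin1 (4868 beside 6231). The orders below therefore depend on the length used, and those by transcript length were not taken. The wild-type order of mean CPM per kilobase was Azin1 (95.5), Oat (94.9), Odc1 (46.3), Sat1 (37.6), Otc (27.1), Agmat (15.8), Amd1 (5.44), Sms (0.621) and Srm (0.554). Neighbours whose ranges over the 3 wild-type mice overlapped were Azin1 and Oat, Odc1 and Sat1, Sat1 and Otc, and Sms and Srm. In the double mutant the order was Oat (389), Agmat (67.3), Azin1 (54.6), Odc1 (54.4), Sat1 (52.9), Otc (23.5), Amd1 (8.41), Srm (3.89) and Sms (1.60). There the 4 genes from Agmat to Sat1 overlapped each with the next, and the other neighbours did not. Agmat moved from below Otc to above it, and both spermidine and spermine synthase stayed the lowest of the set. The summed CPM of the 9 genes was 1204, 1235 and 1106 in wild-type and 1672, 1679 and 1751 in double mutant replicates 1 to 3. Without Oat and Agmat, the sum was 989, 989 and 886 CPM in wild-type and 781, 737 and 787 CPM in double mutant mice. Azin1 alone made up 560, 653 and 573 CPM of this sum in wild-type and 346, 303 and 372 CPM in double mutant mice. The lower sum is thus not a fall of the 7 genes together, of which 4 rose and 1 fell.

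**Figure D2:**
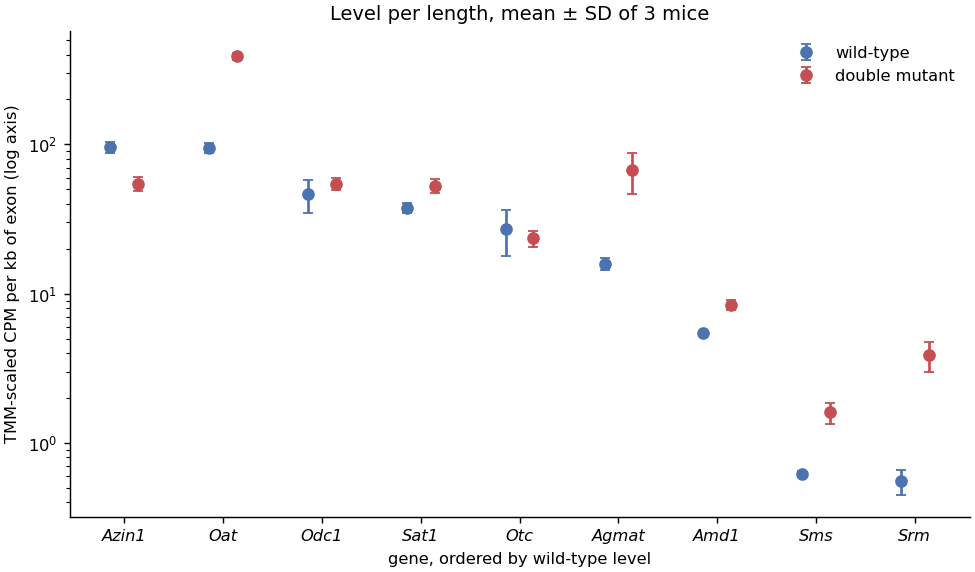
Mean TMM-scaled CPM per kilobase of exon (y axis, log scale) of the 9 genes, ordered by wild-type level, with error bars of ± SD (n = 3 mice). In wild-type villi the levels run from 0.554 for Srm to 95.5 for Azin1, and in double mutant villi from 1.60 for Sms to 389 for Oat.

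Ratios of genes within each mouse do not depend on the scaling between libraries. Their sizes depend on the exon lengths used, and the log2 differences between the groups do not. The level of Oat per kilobase over that of Otc was 2.38, 4.43 and 4.47 in wild-type replicates 1 to 3 and 14.4, 15.8 and 20.1 in double mutant replicates 1 to 3. This ratio uses Oat and was not tested. Azin1 over Odc1 was 1.54, 2.29 and 2.62 in wild-type and 0.932, 0.906 and 1.19 in double mutant mice, a mean difference of -1.07 on the log2 scale. Azin1 over Oaz1 was 0.217, 0.330 and 0.254 in wild-type and 0.192, 0.130 and 0.175 in double mutant mice, a mean log2 difference of -0.69. Sms over Srm was 1.04, 1.01 and 1.39 in wild-type and 0.624, 0.377 and 0.305 in double mutant mice, a mean log2 difference of -1.45. Cps1 over Otc, the ratio of carbamoyl phosphate synthetase to the enzyme that uses its product, was 1.02, 3.07 and 2.68 in wild-type and 7.66, 5.96 and 7.79 in double mutant mice, a mean log2 difference of 1.80. None of these 4 tested ratios overlapped between the groups, and neither did 52.4% of single genes. The ratios were not part of the planned tests, and each holds a gene called above. No share over other pairs of genes was taken, so the separation is not read as a further result. The two-sided exact permutation p was 0.1 for each, also after Benjamini-Hochberg adjustment over the 4, and this is the smallest that 3 against 3 mice allow.

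Genes around the set were taken from 4 lists of 57 genes, of which 55 were in the table and 50 were tested. Of these 50, 7 genes (Adc, Eif5a2, Ass1, Ddah1, Pycr1, Prodh2 and Gls2) reached the level of the filter on low counts (0.498 CPM) in fewer than 3 mice of a group. They could pass the filter through the group where they were higher, so their tests are not read, whether called or not, a choice made after seeing the data. In the other 43 genes 12 rose and 7 fell, 44.2% beside the 36.8% called over all genes tested, with a median log2 fold change of 0.17. With the 7 genes, of which Ddah1 and Gls2 were called higher, the counts were 14 and 7 of 50, or 42.0%, with a median of 0.31.

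**Figure D3:**
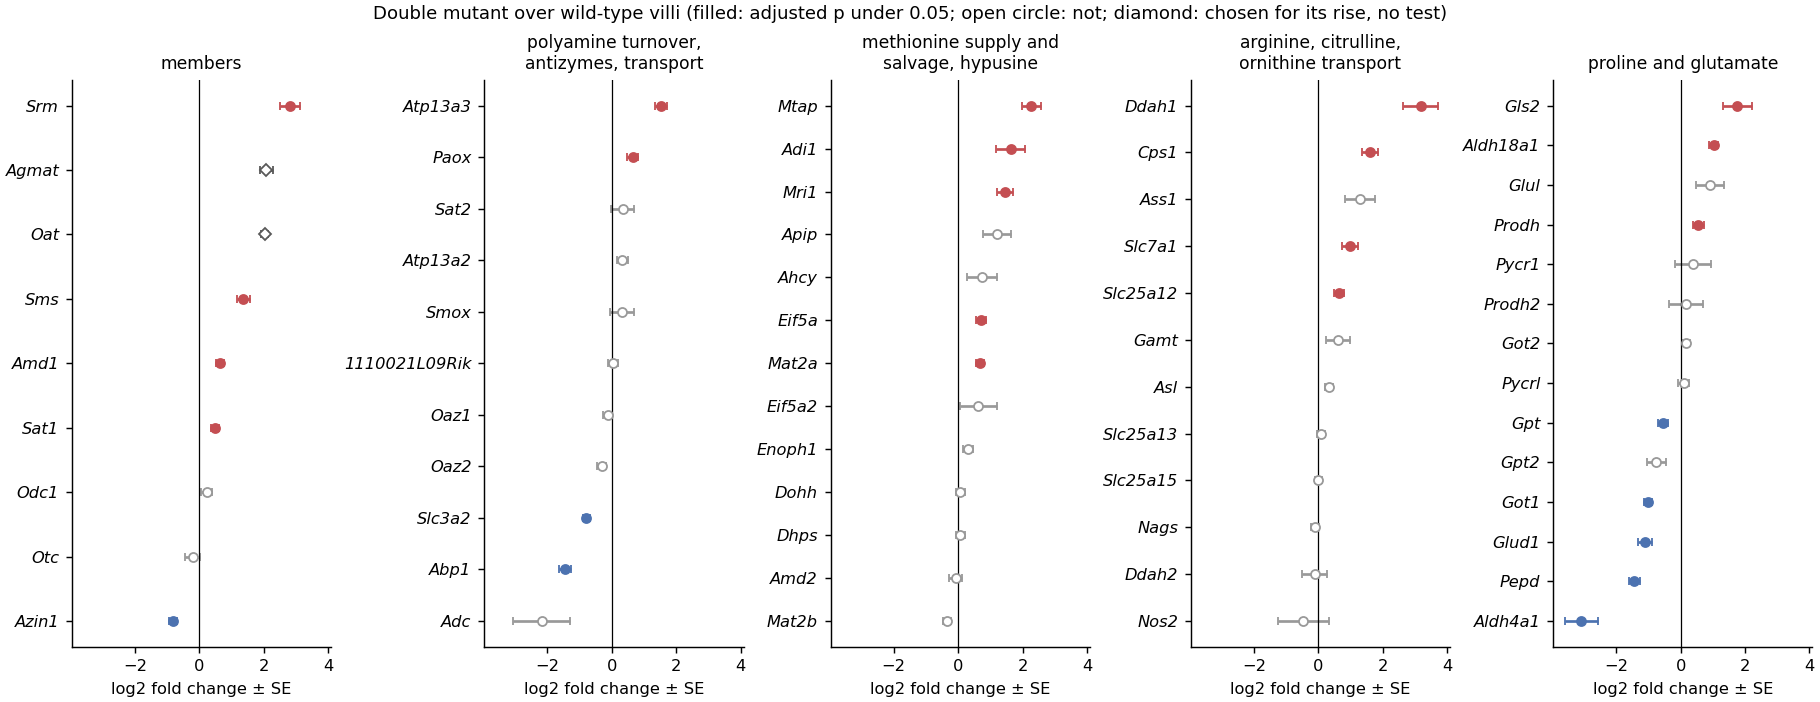
Log2 fold change (x axis, double mutant over wild-type, ± SE) of the 9 genes and of the 50 tested genes of the 4 lists. Filled points passed the edgeR test, open circles did not, and open diamonds mark Oat and Agmat, which were chosen for being higher. Called genes lie on both sides of 0 in the polyamine turnover and the proline and glutamate lists, and on the right alone in the other two. The tests of the 7 genes near the filter on low counts (Adc, Eif5a2, Ass1, Ddah1, Pycr1, Prodh2 and Gls2) are drawn but not read.

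Polyamine turnover, antizymes and transport gave 2 genes that rose and 2 that fell of 10 with Adc left out, 40.0% beside the 36.8% of all genes, with a median log2 fold change of 0.18. With Adc, the same counts of 2 and 2 were out of 11, with a median of 0.03. Atp13a3, a P5B-type polyamine transporter, measured 29.3, 38.1 and 31.7 CPM in wild-type and 123, 80.9 and 82.9 CPM in double mutant replicates 1 to 3. It rose by 1.53 on the log2 scale (edgeR adjusted p = 0.000645). Paox, the peroxisomal oxidase of acetylated polyamines, rose by 0.65 (edgeR adjusted p = 0.0207), a call that was lost without wild-type replicate 2 (edgeR adjusted p = 0.0622) and without double mutant replicate 3 (0.0780). Abp1 (newer symbol Aoc1), the diamine oxidase that degrades putrescine and histamine and is abundant in villus enterocytes, measured 1215, 923 and 784 CPM in wild-type and 322, 313 and 438 CPM in double mutant mice. It fell by 1.45 on the log2 scale (edgeR adjusted p = 0.00104). The other gene that fell, Slc3a2 (-0.78, edgeR adjusted p = 0.00166), encodes the heavy chain of several amino acid transporters and is named here after its value was seen. Oaz2, antizyme 2, did not pass (-0.31, edgeR adjusted p = 0.132), nor did the spermine oxidase gene Smox (0.32, edgeR adjusted p = 0.552), whose lowest mouse was wild-type replicate 1 at 5.87 CPM and whose log2 fold change was -0.03 without that mouse. Adc (newer symbol Azin2), antizyme inhibitor 2, was at 1.37 CPM or less in every mouse, with 0, 2 and 12 counts in double mutant replicates 1 to 3. It reached the level of the filter in 3 wild-type mice and 1 double mutant mouse.

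In methionine supply, methionine salvage and hypusine synthesis, 5 of 12 genes rose and 0 fell (edgeR) with Eif5a2 left out, 41.7% beside the 36.8% called over all genes, with a median log2 fold change of 0.70 beside 0.02. With Eif5a2, the counts were 5 and 0 of 13, with a median of 0.68. At an unadjusted p under 0.05, 1 gene of this list was lower in edgeR, and DESeq2 and limma-voom also called 0 lower. Mtap, which recovers the methylthioadenosine left over from spermidine and spermine synthesis, measured 1.21, 2.12 and 1.21 CPM in wild-type and 8.07, 7.75 and 6.03 CPM in double mutant replicates 1 to 3. It rose by 2.27 on the log2 scale (edgeR adjusted p = 0.000867). Of the 4 later salvage enzymes listed, Mri1 (1.45, edgeR adjusted p = 0.00293) and Adi1 (1.63, edgeR adjusted p = 0.0271) rose too. The call of Adi1 was lost without wild-type replicate 3 (edgeR adjusted p = 0.0844), without double mutant replicate 3 (0.0792) and with no filter on low counts (0.0531). Of the same salvage route, Apip (1.21, edgeR adjusted p = 0.0575) and Enoph1 (0.30, edgeR adjusted p = 0.168) did not pass, and are named after their values were seen. Eif5a, the translation factor that carries hypusine, a residue made from spermidine, measured 195 ± 18.7 CPM in the wild-type group and 319 ± 60.9 CPM in double mutant mice (SD, n = 3 each; log2 fold change 0.71, edgeR adjusted p = 0.0077). Dhps, the deoxyhypusine synthase, measured 15.7 ± 1.47 and 16.5 ± 1.64 CPM with overlapping groups (log2 fold change 0.07, edgeR adjusted p = 0.75). The remaining gene that rose was Mat2a (0.68, edgeR adjusted p = 0.0041), which makes S-adenosylmethionine and is named after its value was seen.

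In arginine, citrulline and ornithine transport, 3 of 10 genes rose and 0 fell (edgeR) with Ass1 and Ddah1 left out, 30.0% beside the 36.8% called over all genes, with a median log2 fold change of 0.21 beside 0.02. With both, 4 of 12 were called, with a median of 0.47. With library size alone, 6 of 12 were called, all higher. Under that scaling 3732 of all 13346 genes tested were called higher, beside 2632 in the main fit. No gene of this list was lower at an unadjusted p under 0.05 in edgeR, and DESeq2 and limma-voom called 0 lower. Cps1, the mitochondrial carbamoyl phosphate synthetase, measured 213, 395 and 307 CPM in wild-type and 1115, 789 and 882 CPM in double mutant replicates 1 to 3. Wild-type replicate 1 was the lowest, and Cps1 rose by 1.61 on the log2 scale (edgeR adjusted p = 0.00155). Ddah1, which releases citrulline from methylated arginine, measured 1.67, 0.272 and 1.72 CPM in wild-type and 9.39, 15.4 and 9.16 CPM in double mutant replicates 1 to 3. It reached the level of the filter in 2 wild-type mice and 3 double mutant mice. The other two that rose were the cationic amino acid transporter gene Slc7a1 (0.98, edgeR adjusted p = 0.0143) and the aspartate/glutamate carrier gene Slc25a12 (0.63, edgeR adjusted p = 0.0145), both named after their values were seen. The call of Slc7a1 was lost without double mutant replicate 1 (edgeR adjusted p = 0.0544). Of the enzymes that rebuild arginine from citrulline, Ass1 was at 0.599 ± 0.189 CPM in the wild-type group and 1.48 ± 0.576 CPM in the double mutants, and Asl, at 23.2 ± 1.44 and 29.1 ± 2.76 CPM, did not pass the test (log2 fold change 0.33, edgeR adjusted p = 0.0724). Slc25a15, the mitochondrial ornithine carrier, measured 361, 375 and 302 CPM in wild-type and 344, 343 and 350 CPM in double mutant mice, with overlapping groups and a 95% confidence interval of the log2 fold change of -0.26 to 0.26.

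Proline and glutamate metabolism gave, with Pycr1, Prodh2 and Gls2 left out, 2 genes that rose and 5 that fell of 11, 63.6% beside the 36.8% of all genes, with a median log2 fold change of -0.55. With these 3 genes, 3 rose and 5 fell of 14, or 57.1%, and the median was 0.13, of the opposite sign. Aldh18a1, which makes glutamate semialdehyde for proline and ornithine synthesis, measured 142, 140 and 168 CPM in wild-type and 347, 307 and 264 CPM in double mutant replicates 1 to 3. It rose by 1.03 on the log2 scale (edgeR adjusted p = 0.000871). Prodh, proline dehydrogenase, rose by 0.55 (edgeR adjusted p = 0.0381), a call lost without wild-type replicate 1 or 2 (edgeR adjusted p = 0.0772 and 0.0920) and without double mutant replicate 2 or 3 (0.0652 and 0.137). Gls2, the liver-type glutaminase, had 7, 5 and 5 counts in wild-type and 23, 22 and 15 counts in double mutant replicates 1 to 3. It reached the level of the filter in 0 wild-type mice and 3 double mutant mice. Aldh4a1, which oxidises glutamate semialdehyde to glutamate downstream of Oat and Prodh, measured 184, 303 and 238 CPM in wild-type and 25.3, 12.9 and 47.6 CPM in double mutant mice. It fell by 3.08 on the log2 scale (edgeR adjusted p = 0.00647). Pepd, the dipeptidase that frees proline (-1.43, edgeR adjusted p = 0.000484), and Glud1, glutamate dehydrogenase (-1.11, edgeR adjusted p = 0.00457), also fell. The other two genes that fell were the transaminase genes Got1 (-1.0, edgeR adjusted p = 0.000659) and Gpt (-0.55, edgeR adjusted p = 0.0192), named after their values were seen. Pycr1 was at 0.962 ± 0.630 CPM in the wild-type group and 1.24 ± 0.520 CPM in the double mutants.

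Males and females were set side by side, since each group held 1 male and 3 of the 9 genes (Otc, Sms and Sat1) are X-linked. The interaction of sex and genotype, added after seeing the data, had its smallest adjusted p among the 7 tested genes in Otc (edgeR adjusted p = 0.263, unadjusted p = 0.0425). With 1 male per group, the male arm has no replicate, and sex cannot be told apart from the single mouse. Wild-type replicate 1, the male with few goblet and Paneth cell transcripts, was the highest wild-type mouse in 2 of the 9 genes (Otc and Odc1).

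The direction of the 7 tested genes was compared across the alternatives. In the 6 of them other than Otc, the log2 fold change had the same sign in every alternative fit, from those that changed the scaling, filter, tool or covariate to those that left out 1 mouse. Scaling by library size alone moved the median log2 fold change of all genes from 0.02 to 0.22 and the share of higher calls from 53.7% to 72.4%, and the 4 genes that rose and 1 that fell passed there too.

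**Figure D4:**
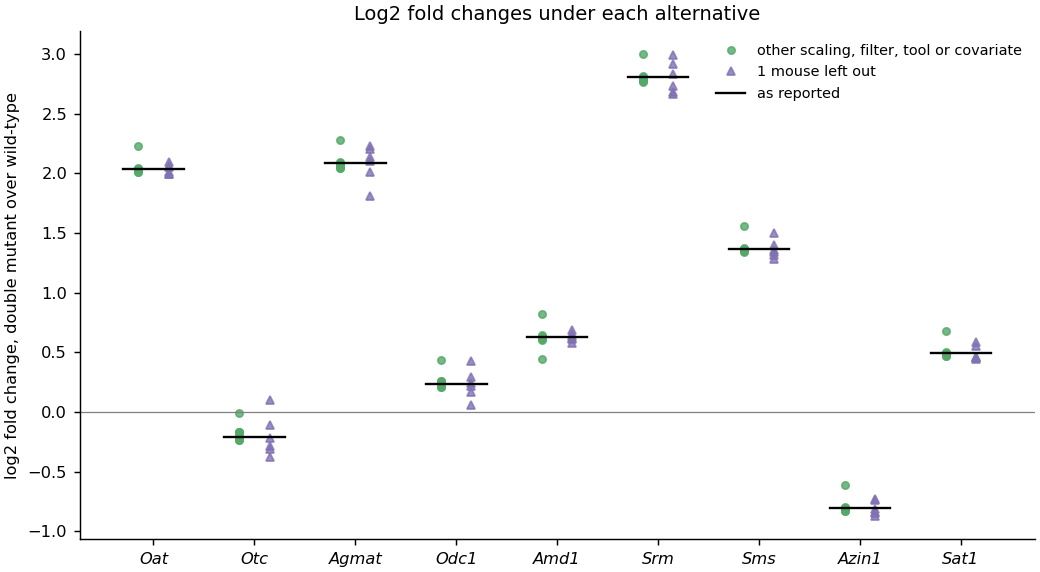
Log2 fold change (y axis, double mutant over wild-type) of the 9 genes as reported (black line), under another scaling, filter, tool or covariate (circles), and without 1 mouse at a time (triangles). Otc is the gene whose points reach 0 and cross it, and Odc1 comes closest to 0 among the others.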

How the data were processed

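RNA from duodenal villus epithelium of 3 double mutant and 3 wild-type mice was sequenced from poly(A) libraries, per the labels and the study's methods. The authors aligned the reads to mm9 with HISAT2 and took gene counts from featureCounts, and deposited them as 1 table of raw counts. Strand and multi-mapping settings are not given in the sources used here. Of 20409 rows, 20073 had an Ensembl identifier (20032 in GENCODE vM1, from which mm9 coordinates and exon lengths were taken), and the 336 other rows, numbered genes outside that annotation, held 0.214 to 0.27% of counts per library and were left in the fit.

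Counts were filtered by filterByExpr, scaled by TMM and tested with edgeR 4.0.16 (glmQLFit, robust, and glmQLFTest, two-sided) in R 4.3.3, with Benjamini-Hochberg adjustment over the 13346 genes tested and calls at 0.05. The script was tested on simulated data. DESeq2 1.42.0 and limma 3.58.1 (voom) were alternatives. Errors are SD or SE over mice and intervals are 95%. Libraries held 19678507 to 26337318 counts. Each edgeR p-value tests the difference between the groups against the spread between mice, which the fit moderates across genes. Promoter sequences and near-identical copies (minimap2 2.31) were described with no test.

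The set was given as 10 genes, of which 1 is not reported here, nor are some genes of the lists, and counts are over those reported. The set, the lists and the motifs were chosen with earlier results of these data known. Named from the 4 lists were called genes with a log2 fold change of at least 1 in size (at most 4 per list and direction) and a set of enzymes fixed by role, and others where stated. Each mouse was taken as 1 replicate, as the labels give them.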

Additional observations from a re-analysis of the deposited data

How the results depend on the processing

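The log2 fold changes of the 7 tested genes had the reported direction in every alternative, except that of Otc, which was 0.10 without wild-type replicate 1 and ran from -0.38 to 0.10 with one mouse left out at a time. That of Oat was 2.23 with library size alone, beside 2.03. With one mouse left out at a time, 3 to 5 of the 7 tested genes were called higher and 1 to 1 lower, where 25.1% to 37.4% of all genes tested were called (13.2% to 20.2% higher and 11.9% to 17.1% lower). The counts of the lists, in the order given above, are here over all their tested genes, and those without Adc, Eif5a2, Ass1, Ddah1, Pycr1, Prodh2 and Gls2 follow each as reduced lists. With one mouse left out at a time, 3 to 4, 4 to 5, 4 to 4 and 6 to 9 genes were called (3 to 4, 4 to 5, 3 to 3 and 6 to 8 in the reduced lists). Without wild-type replicate 1, Odc1 was also called, and without wild-type replicate 2 or double mutant replicate 3 Sat1 was not. With a log2 fold change of at least 1 also required, 2 of the 7 genes were called higher and 0 lower, and the lists gave 2, 3, 2 and 5 genes (2, 3, 1 and 4 reduced), beside 17.1% of all genes (10.9% higher and 6.23% lower). At 2 or more, 1 of the 7 was higher and 0 lower, and the lists gave 0, 1, 1 and 1 (0, 1, 0 and 1 reduced, the arginine gene being Ddah1), beside 5.3% of all genes (3.04% higher and 2.26% lower). The construction of these thresholds, which keep only larger changes, accounts for the lower counts.

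No pairing of the mice by replicate number was visible. Deviations from the group means of same-numbered mice correlated at 0.0224, -0.109 and 0.0123 across genes, and not every mouse correlated best with its own number. With 3 mice per group, this cannot exclude a pairing. With the replicate block, 3834 genes were called in place of 4905, with 4 of the 7 genes higher and 1 lower, and 4, 5, 4 and 7 genes in the lists (4, 5, 3 and 6 reduced). The full proline and glutamate list then had 3 genes higher and 4 lower, beside 3 and 5 as reported. With library size alone it had 4 higher and 4 lower. The precision of Srm is limited by its 14 to 22 counts in wild-type libraries.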
